A study of Mus musculus with 13 samples.

Results

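The DNA replication machinery was followed here as 56 genes, from the proteins that mark replication origins to the enzymes that supply nucleotides. The genes were chosen by function, with earlier results of these data known. Their symbols were matched to the gene identifiers through the mouse annotation of GRCm39. All 56 were found among the 57010 genes listed and passed the filter on low counts that left 15034 genes. RNA of mouse embryonic fibroblasts (MEFs) was sequenced in 4 groups of 3 mice each. Control MEFs were wild type and labelled untreated, and the study describes its controls as given vehicle in place of etoposide. Senescent MEFs (SnCs) were wild type cells exposed to 2 µM etoposide, a drug that traps topoisomerase II on broken DNA, for 24 h and then kept in normal medium for 5 days. The other 2 groups were SnCs of the same kind that received Fucoidan-FV, a polysaccharide rich in sulfate from the brown seaweed Fucus vesiculosus, at 100 or 300 µg/mL for 12 h. Mice 4, 5 and 6 recur in every group by their labels, and control mouse 5 has a pair of libraries, 5(1) and 5(2), which were summed. All 3 senescent groups carry the etoposide exposure and the controls do not, so that the drug and the senescent state cannot be told apart. Whether the controls spent the same days in culture is not given in the sources used here, so time cannot be set aside either. The 13 libraries held 22782505 to 31278741 counts.

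Replication starts at origins, where the origin recognition complex (ORC), Cdc6 and Cdt1 load the MCM2-7 helicase onto DNA, a step called licensing that geminin blocks outside its proper phase. In S phase the kinases Cdc7-Dbf4 and CDK turn the loaded helicase on by adding Cdc45 and the GINS complex, after which the polymerases, the sliding clamp PCNA with its loader RFC, and the single-strand binding protein RPA copy both strands. Many of these genes are transcribed at the entry to S phase from promoters bound by E2F factors, and cells that have left the cycle keep most of them low.

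The letters bound by E2F factors were looked for in the members' promoters, and a few are shown because the genes beside them went different ways in SnCs. RefSeq promoters (GRCm38.p6) were at hand for 47 of the 56 genes. The 8-letter words TTTCCCGC, TTTCGCGC, TTTGCCGC and TTTGGCGC, on either strand, stood in the 250 bases before the start of 10 of the 47 genes (21.3%) and of 2.16% of the 27025 genes in the table. In the stretches printed here, each 5′ to 3′ on the strand of its gene, capitals mark these words, which overlap each other in Mcm5 and in the first match of Mcm6. They come from Mcm6 (chr1:128359725-128359835, minus strand), Mcm5 (chr8:75109336-75109387, plus strand), Cdc6 (chr11:98907993-98908040, plus strand), Orc1 (chr4:108579407-108579453, plus strand) and Orc3 (chr4:34614956-34615003, minus strand).
Mcm6: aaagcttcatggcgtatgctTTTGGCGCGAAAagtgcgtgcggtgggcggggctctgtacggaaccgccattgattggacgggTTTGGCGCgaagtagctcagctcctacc
Mcm5: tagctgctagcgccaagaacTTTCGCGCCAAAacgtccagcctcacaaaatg
Cdc6: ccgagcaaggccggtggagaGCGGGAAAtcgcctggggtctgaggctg
Orc1: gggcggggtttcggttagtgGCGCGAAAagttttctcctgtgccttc
Orc3: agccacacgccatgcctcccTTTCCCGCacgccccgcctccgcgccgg

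The first 4 belong to genes that fell by 3.23 to 3.99 on the log2 scale in SnCs, and Orc3 to a gene that did not pass the test. The other genes with such a word were Gins3, Mcm7, Pola1, Pole4 and Rfc3. Of the 10 genes with a word 7 were lower in SnCs by the test described next (median −2.83 on the log2 scale), and of the 37 without one 29 were lower (median −2.27). The letters CCAAT, on either strand, stood in 55.3% of the 47 member promoters and in 37.5% of all promoters of the table. A match is a description of the letters, and no match says only that these letters are not in this window.

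Senescent MEFs had far less RNA of the replication machinery than control MEFs. Of the 56 genes 43 were lower and 0 were higher as differentially expressed genes (DEGs, adjusted p under 0.05 by edgeR's quasi-likelihood test over all genes and an absolute log2 fold change over 1), against 3.95% of all genes tested that were lower and 4.47% that were higher. The median log2 fold change was −2.33 over the 56 genes and 0.07 over all genes tested, and 54 of the 56 had a negative value. The values of the 3 senescent and the 3 control mice did not overlap, with SnCs lower, for 48 of the 56 genes, where 12.9% of all genes did so. The senescent mean was at a median of 19.9% of the control mean, below 10% for 13 genes and above 50% for 12. In these bulk cultures, fewer cells that express a gene and less of its RNA per cell cannot be told apart. Without control mouse 4, which was the highest control for 35 of the 56 genes and for 36.3% of all genes, 37 genes were DEGs.

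**Figure D1:**
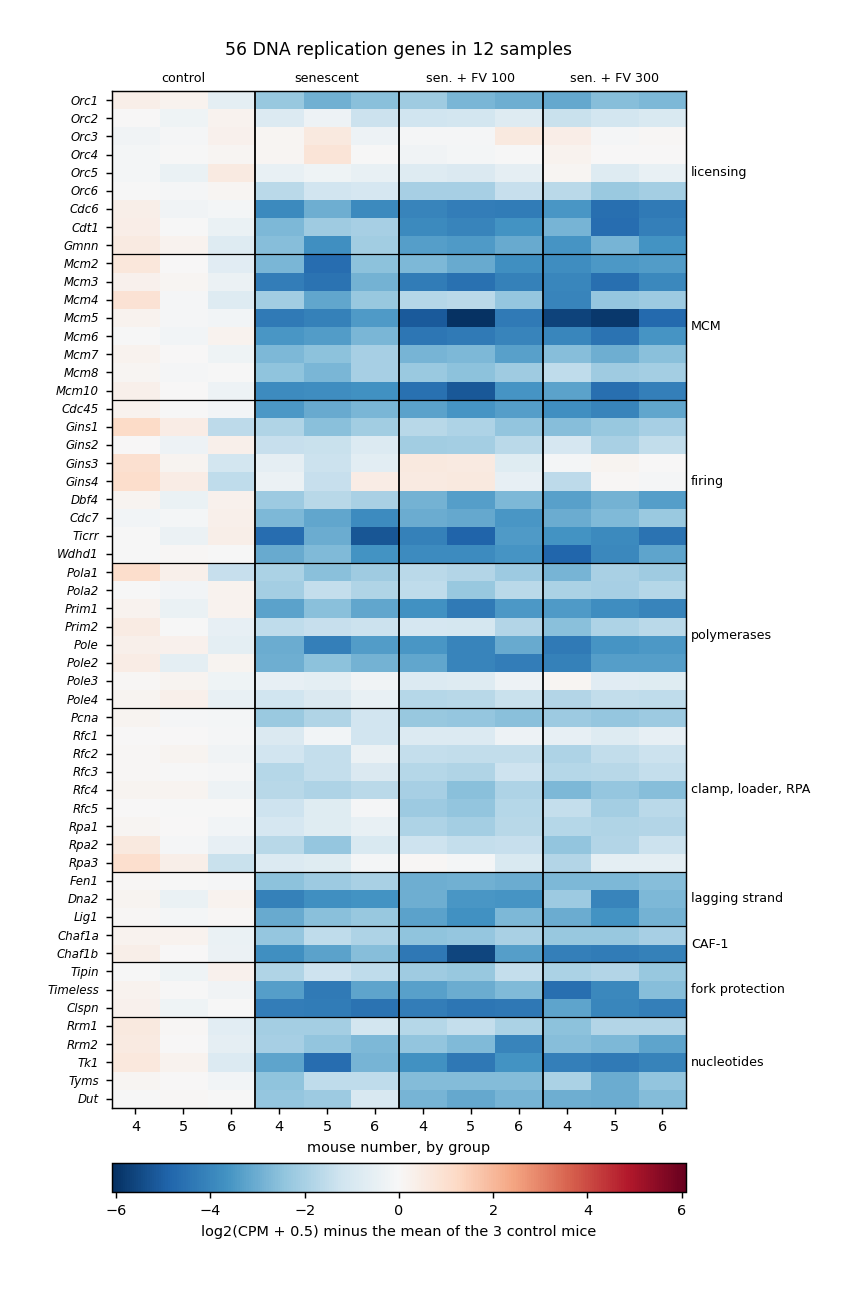
Rows are the 56 genes ordered by role, columns the 12 samples by group and mouse number, and colour gives log2(CPM + 0.5) minus the mean of the 3 control mice. The 9 senescent columns are blue for most rows, with Orc3 and Orc4 near white or pale red in all of them.

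The labels could be checked against 3 genes outside the list. Cdkn1a, which encodes the CDK inhibitor p21, rose in SnCs by 1.82 ± 0.18 on the log2 scale (SE, adjusted p = 6.8e-05), and Cdkn2a, which encodes p16 and p19, by 2.46 ± 0.25. Mki67, the proliferation marker Ki-67, stood at 68.1, 40.2 and 17.2 CPM (counts scaled to the library total after TMM correction) in control mice 4, 5 and 6 and at 2.05, 0.647 and 2.55 in SnCs. All 10 fibroblast markers were tested and their summed level was 31846 to 43384 CPM in controls and 35159 to 53789 in SnCs. The largest part of the sum was Fn1, with means of 25338 CPM in controls and 31975 in SnCs. The markers were not alike: Lum averaged 0.061 CPM in controls and 0.666 in SnCs, and Dcn 1.06 and 16.2. In the same order the means fell for Col1a1 (2604 and 1854), Col1a2 (3760 and 2396) and Pdgfra (11 and 7.18). Those of Col3a1, Pdgfrb, Thy1 and Vim were higher in SnCs. Of the other lists, 8 macrophage markers summed to at most 4.59 CPM in controls and to 2.91 to 17.7 in SnCs, none of them a DEG in this comparison, and 5 epithelial markers to at most 0.719 CPM in any sample. Their part in the results was not tested.

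In what follows CPM are given for mice 4, 5 and 6 in that order, and a change is a log2 fold change with its SE. Licensing genes divided by subunit. Orc1, the large ATPase of ORC and the subunit whose level follows the cycle in many cells, was at 5.61, 5.08 and 2.63 CPM in controls and 0.447, 0.129 and 0.306 CPM in SnCs. Every senescent mouse was below every control, and the change was −3.88 ± 0.88 (adjusted p = 0.0118). Orc4, another ATPase subunit, was at 40.2, 42.6 and 46.8 CPM in controls and at 46.4, 73.8 and 42.7 CPM in SnCs, where the groups overlapped and mouse 5 was the highest of all (0.33 ± 0.22, adjusted p = 0.388). Orc3, with 0.18 ± 0.27, was the only other gene of the 56 with a positive value, and it turned to −0.08 without senescent mouse 5. Orc2 and Orc5 had values of −0.80 and −0.46 that were not DEGs, although Orc2 became one (−1.08, adjusted p = 0.0304) without senescent mouse 5, whereas Orc6, the smallest subunit, fell by 1.26 on the log2 scale.

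The factors that work with ORC were all lower. Cdc6, the ATPase that completes the loading site, went from a mean of 31.2 ± 7.26 CPM (SD, n = 3) to 2.20 ± 1.04, a change of −3.83 ± 0.46. Cdt1, which brings MCM2-7 to the origin, and Gmnn, which encodes its inhibitor geminin, changed by −2.40 ± 0.49 and −2.97 ± 0.52. The activator and its inhibitor both fell, and 5 of the 9 licensing genes were DEGs. Cdc6 and Cdt1 held their call in every alternative run, whereas Orc1 lost it without control mouse 4 (−3.68, adjusted p = 0.0523).

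All 8 MCM genes fell, by 2.45 to 4.11 on the log2 scale. Mcm10, which is no subunit of the ring but helps to start it, was at 38.6, 32.2 and 25 CPM in controls and at 1.76, 1.81 and 1.97 CPM in SnCs (−4.11 ± 0.59, adjusted p = 0.000633). Mcm7 changed least, from 105, 91.9 and 74.5 CPM to 12.8, 15.4 and 21.7 CPM (−2.45 ± 0.27, adjusted p = 0.000119). For both genes the lowest control lay far above the highest senescent mouse. Mcm6 went from 232, 205 and 269 CPM to 19.8, 21.9 and 33.6 CPM, a change of −3.23 ± 0.28 with the smallest adjusted p of the MCM genes (2.13e-05). Mcm8, which acts mainly in recombination, fell as well (−2.59 ± 0.36). Mcm4 kept its direction but not its call without control mouse 4 (−2.17, adjusted p = 0.0506).

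Per length, the 6 subunits of the MCM2-7 ring, which are used in equal number, did not stand at equal levels in control MEFs. In TPM (transcript abundance per length, scaled to an equal total in each library, mean ± SD of 3 mice) Mcm6 was at 116 ± 14.4, Mcm7 at 107 ± 4.75, Mcm3 at 74.0 ± 24.7, Mcm5 at 69.8 ± 12.7, Mcm2 at 39.6 ± 10.9 and Mcm4 at 22.7 ± 5.19. The mean of Mcm7 lay within the spread of Mcm6 but not the reverse, and Mcm3 and Mcm5 lay within each other's spread. In SnCs the order of the means changed only at the top: Mcm7 was highest at 21.8 ± 4.11 TPM and Mcm6 followed at 12.1 ± 2.97. Mcm5 was at 4.47 ± 0.893, Mcm2 at 3.92 ± 2.34 and Mcm4 at 3.75 ± 0.828, and these last 3 lay within each other's spread. Mcm3 was at 7.90 ± 8.27 TPM, a spread set by mouse 6. The order is uncertain for Mcm2 and Mcm4, which have 78.7% and 81.9% of their exonic bases in 1 transcript. Genes with a high share of such bases differed between libraries as given further on. In CPM, libraries 5(1) and 5(2) of control mouse 5 stood at 28.9 and 54.6 for Mcm2 and 15.4 and 41 for Mcm4. Mcm3 went the other way with 198 and 92.6.

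**Figure D2:**
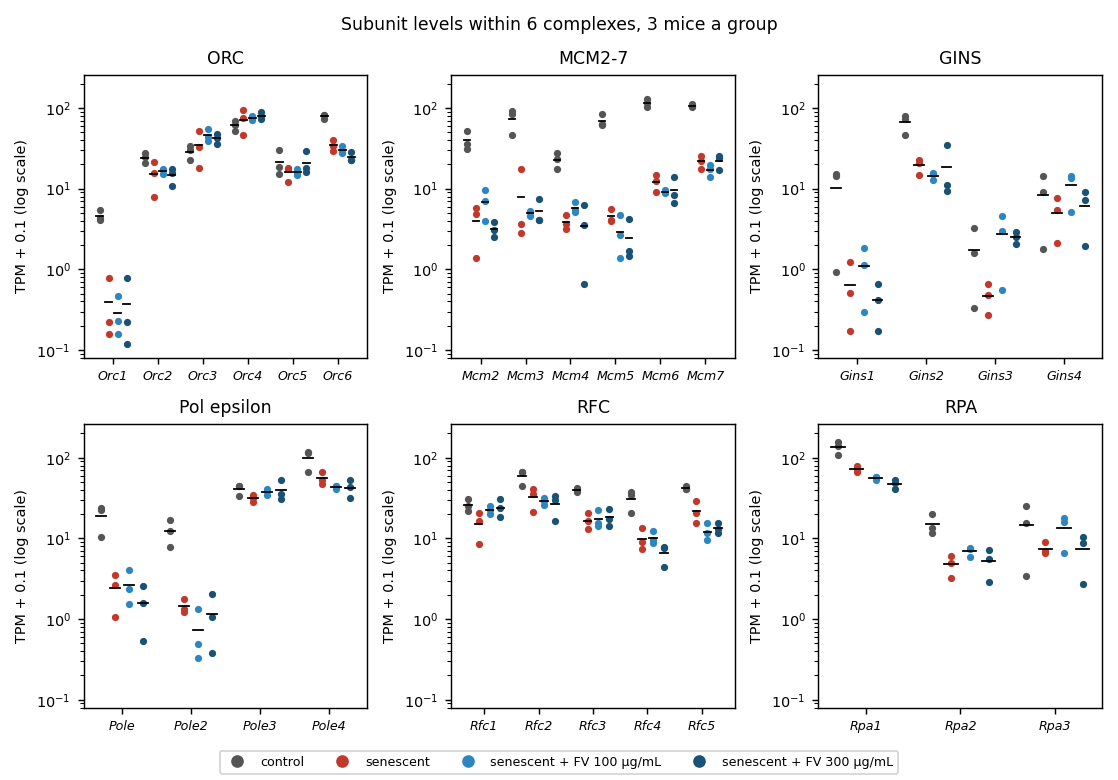
TPM + 0.1 on a log axis for the subunits of 6 complexes, with a point for each mouse and a bar at the mean of 3 mice, coloured by group. All MCM2-7 subunits lie lower in the 3 senescent groups than in controls, while ORC, GINS, polymerase epsilon, RFC and RPA each hold subunits that drop and subunits whose points stay near the controls.

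Of the 9 genes that fire loaded origins 7 fell. Ticrr, which bridges CDK signals to the helicase, was at 22.7, 18.2 and 30.4 CPM in controls and at 0.447, 2.37 and 0.136 CPM in SnCs (−4.62 ± 0.87, adjusted p = 0.00406). Gins4, a GINS subunit, was at 11.9, 7.38 and 1.5 CPM in controls and 3.99, 1.68 and 7.41 CPM in SnCs. The groups overlapped, and the value of −0.66 ± 0.73 did not pass the test (adjusted p = 0.641). The libraries 5(1) and 5(2) of control mouse 5 stood at 3.09 and 12.2 CPM, and all exonic bases of Gins4 lie in 1 transcript, a class of genes that differed between libraries as given further on. Gins3 was uneven as well, with 3.44, 1.73 and 0.423 CPM in controls and an adjusted p of 0.259. Gins2 fell by 1.20 and Gins1 by 3.96, the latter from few counts. Gins1 lost its call with the mouse as a replicate block (−3.83, adjusted p = 0.0671) and when control mouse 4 (−3.20), control mouse 5 (−3.91) or any senescent mouse (−3.46 to −4.66) was left out. The call was also lost with only the groups compared in the fit (−3.93, adjusted p = 0.0819).

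The kinase Cdc7 and its activator Dbf4 fell together. Cdc7 changed by −3.70 ± 0.51. Dbf4 went from 78.7, 54.2 and 84.5 CPM to 14.9, 21.8 and 17.4 CPM, without overlap (−2.01 ± 0.28, adjusted p = 0.000499). Cdc45, the helicase partner, and Wdhd1, which ties the helicase to polymerase alpha, changed by −3.25 ± 0.35 and −3.22 ± 0.45.

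Among the polymerases, 6 of 8 genes were lower. Pole, the catalytic subunit of the leading-strand polymerase epsilon, was at 54.5, 52.2 and 28.4 CPM in controls and at 4.83, 1.90 and 3.64 CPM in SnCs (−3.70 ± 0.46, adjusted p = 0.000256). Its second subunit Pole2 changed by −3.21 ± 0.62. The small histone-fold subunits differed from these in size of change. Pole3, which also serves in a chromatin remodelling complex, was at 55.7, 59.9 and 44.7 CPM in controls and 37.1, 35.0 and 46.4 CPM in SnCs, with overlap (−0.44 ± 0.27, adjusted p = 0.345). Pole4 passed the adjusted p of 0.0474 but not the fold (−0.86 ± 0.26), and it became a DEG without senescent mouse 6 (−1.09) or control mouse 6 (−1.06). The difference between subunits of a complex was not tested.

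The polymerase alpha-primase genes, which lay down the first bases of each strand, all fell: Pola1 by 3.20, Pola2 by 1.82, Prim1 by 3.16 and Prim2 by 1.58 on the log2 scale. Pola2 and Prim1 held their call in every alternative. Prim2 lost it with the replicate block (−1.55, adjusted p = 0.0572) and without control mouse 4 (−1.28), control mouse 5 (−1.62), senescent mouse 4 (−1.53) or senescent mouse 5 (−1.56), and Pola1 without control mouse 4 (−2.53, adjusted p = 0.0925) and also without senescent mouse 5 (−2.92). With only the groups compared in the fit, Prim2 (−1.58, adjusted p = 0.061) and Pola1 (−3.18, adjusted p = 0.0538) were lost too. Prim2 was also lost on TPM with limma (−1.28, adjusted p = 0.0662).

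Of the 9 roles, that of the clamp, its loader and RPA had the median nearest to 0 (−0.94), with 4 DEGs of 9 genes. Pcna, the sliding clamp, had the highest level per length of the 56 genes in controls (155 ± 15.6 TPM, within the spread of Rrm2 and Rrm1), and changed by −1.71 ± 0.25 (adjusted p = 0.000833). Rfc4 fell most of the role, from 22.0, 21.6 and 15.3 CPM to 5.75, 4.83 and 5.88 CPM (−1.84 ± 0.32, adjusted p = 0.00259). Rfc5 changed least: it was at 65.8, 65.0 and 65.1 CPM in controls and at 26.6, 39.4 and 62.9 CPM in SnCs, where mouse 6 nearly reached the controls (−0.60 ± 0.30, adjusted p = 0.233). The control values lay close together, but libraries 5(1) and 5(2), summed for mouse 5, stood at 75.1 and 49.7 CPM. Rfc3 was a DEG at −1.36 ± 0.30, while Rfc1 (−0.69) and Rfc2 (−0.94) were not, although Rfc1 became one without senescent mouse 5 (−1.02) and Rfc2 without senescent mouse 6 (−1.32).

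The RPA subunits had unlike values. Rpa1, the large DNA-binding subunit, was at 257, 241 and 208 CPM in controls and at 114, 141 and 169 CPM in SnCs. The groups did not overlap and the adjusted p was 0.0176, but the change of −0.73 ± 0.18 was below the fold that makes a DEG. Rpa2 fell by 1.72 ± 0.48, a call that was lost without control mouse 4 (−1.36), control mouse 5 (−1.80), senescent mouse 4 (−1.65) or senescent mouse 5 (−1.40), and Rpa3 (−0.94 ± 0.68) was not a DEG. The call of Rpa2 was also lost with only the groups compared in the fit (−1.73, adjusted p = 0.0987).

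The 3 lagging-strand enzymes fell. Dna2, a nuclease and helicase that trims long flaps, was at 15.7, 10.3 and 16.4 CPM in controls and at 0.320, 0.560 and 0.646 CPM in SnCs (−4.79 ± 0.67, adjusted p = 0.000571). Fen1, the main flap endonuclease, was at 72.8, 68.7 and 66.5 CPM and then at 12, 14.3 and 17 CPM (−2.27 ± 0.21, adjusted p = 3.74e-05). Lig1, which seals the joined fragments, changed by −2.66 ± 0.32. The 2 subunits of CAF-1, which puts histones onto new DNA, fell as well: Chaf1b from 55.6, 43.3 and 33.6 CPM to 2.81, 4.05 and 6.83 CPM (−3.27 ± 0.58, adjusted p = 0.00274), and Chaf1a from 73.8, 74.3 and 48.9 CPM to 12.3, 21.9 and 16.9 CPM (−1.95 ± 0.28, adjusted p = 0.000589). None of these groups overlapped.

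Clspn, which encodes claspin, the adaptor of the replication checkpoint kinase Chk1, had the largest fall of the 56. It went from 30.3, 21.5 and 25.4 CPM to 0.895, 0.862 and 0.646 CPM, 3.11% of the control mean (−5.00 ± 0.43, adjusted p = 2.13e-05). Timeless fell by 3.85 ± 0.59. Its partner Tipin changed least of the fork protection genes, from 56.9, 46.8 and 69.5 CPM to 15.8, 23.3 and 18.9 CPM (−1.58 ± 0.29, adjusted p = 0.00313).

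All 5 nucleotide supply genes fell. Tk1, the thymidine kinase of cycling cells, was at 68.7, 51.2 and 25 CPM in controls and at 4.28, 1.29 and 5.71 CPM in SnCs (−3.68 ± 0.52, adjusted p = 0.000589). Dut, which removes dUTP, was at 100, 104 and 97.4 CPM in controls and uneven in SnCs at 19.4, 21.4 and 51.2 CPM (−1.71 ± 0.32, adjusted p = 0.00391). Libraries 5(1) and 5(2) of control mouse 5 stood at 123 and 75.4 CPM. Mouse 6 was again the highest senescent sample. The ribonucleotide reductase subunits Rrm1 and Rrm2 changed by −1.77 ± 0.35 and −2.46 ± 0.41, and thymidylate synthase, Tyms, by −1.82 ± 0.33.

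**Figure D3:**
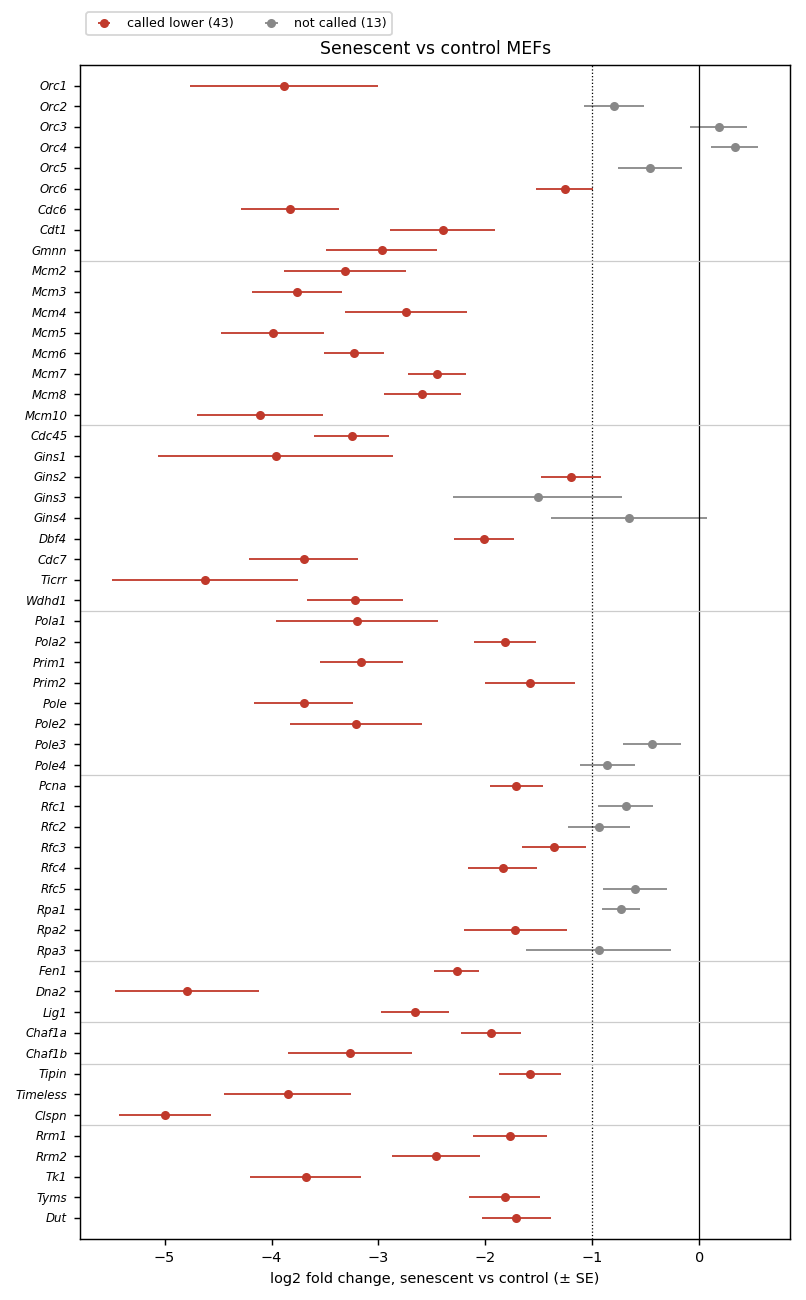
Log2 fold change of senescent against control MEFs with its SE for the 56 genes by role (grey lines part the roles). The 43 DEGs (red) lie left of the dotted line at −1, and the 13 others (grey) lie right of it, apart from Gins3 at −1.51.

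Genes of the same processes outside the list were counted for comparison. Of 36 other fork and S phase factors 27 were lower and 0 higher (median −2.19), led by Exo1 (−5.21 ± 0.88), an exonuclease, and Pclaf (−4.93 ± 0.72), which binds PCNA. Of 24 other nucleotide synthesis genes 9 were lower (median −0.90), led by Shmt1 and Dck, and of 17 histone chaperone and chromatin replication genes 7 were lower (median −0.92), led by Uhrf1 and Asf1b. Histone genes, picked by symbols that begin with H2ac, H2bc, H3c or H4c and a number, went the other way. They include the pseudogenes H2ac5-ps and H2ac14-ps, so that not all are genes of replication-dependent histones. Of 64 such genes 28 were tested, 11 were higher and 0 lower in SnCs, with H4c18 (3.34 ± 0.69) and H2bc6 (3.30 ± 0.46) the largest, and H2bc6 was at 2.59, 3.42 and 0.705 CPM in controls and 20.4, 29.1 and 17.9 CPM in SnCs. These near-identical copies can share reads, so that the values of single histone genes are uncertain, and 22 of the 28 have over 95% of their exonic bases in 1 transcript, a class of genes that differed between libraries as given next.

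Libraries differed in a way that follows the structure of genes. The 1215 genes with over 95% of exonic bases in 1 transcript and at least 1 CPM deviated from their mean over the 13 libraries by a median of −1.17 (control mouse 6) to 0.89 (Fucoidan-FV at 100 µg/mL, mouse 5) on the log2 scale, against −0.18 to 0.23 for the 6885 genes with under 50%. Libraries 5(1) and 5(2) of the same mouse were at −0.99 and 0.75. Of the 56 genes 13 had over 70% of bases in 1 transcript, and library 5(2) was above 5(1) for them by a median of 0.64, but below it by 0.70 for the other 43. With offsets for transcript structure, length and GC content the count in SnCs stayed at 43. Whether reads were counted by strand is not given in the sources used here, and 10 of the 56 genes overlap a gene on the other strand over more than 20% of their exonic bases, the most for Fen1 (79.8%), Gins2 (67.3%) and Chaf1a (51.7%). The others were Rfc5 (36.2%), Rfc4, Orc4 (31.9%), Orc2, Rfc2, Gmnn and Pcna. Without strand, reads from both partners cannot be told apart.

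With Fucoidan-FV a few replication genes were lower than in untreated SnCs, and none was higher by the test. At 100 µg/mL 5 of the 56 genes were lower and 0 higher, against 1.60% of all genes lower and 1.10% higher. At 300 µg/mL 2 were lower and 0 higher, against 0.885% and 0.752% of all genes. The median log2 fold change against untreated SnCs was −0.41 at 100 µg/mL and −0.48 at 300 µg/mL, with −0.02 and 0.00 over all genes, and 43 and 46 of the 56 genes had a negative value, while 15 and 17 had an unadjusted p under 0.05, a level that 19.8% and 15.3% of all genes passed. Both doses were set against the same untreated senescent samples, so their values stand side by side and are not independent. Within the mice the median was −0.20, −0.64 and −0.43 at 100 µg/mL and −0.25, −0.51 and −0.51 at 300 µg/mL for mice 4, 5 and 6.

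**Figure D4:**
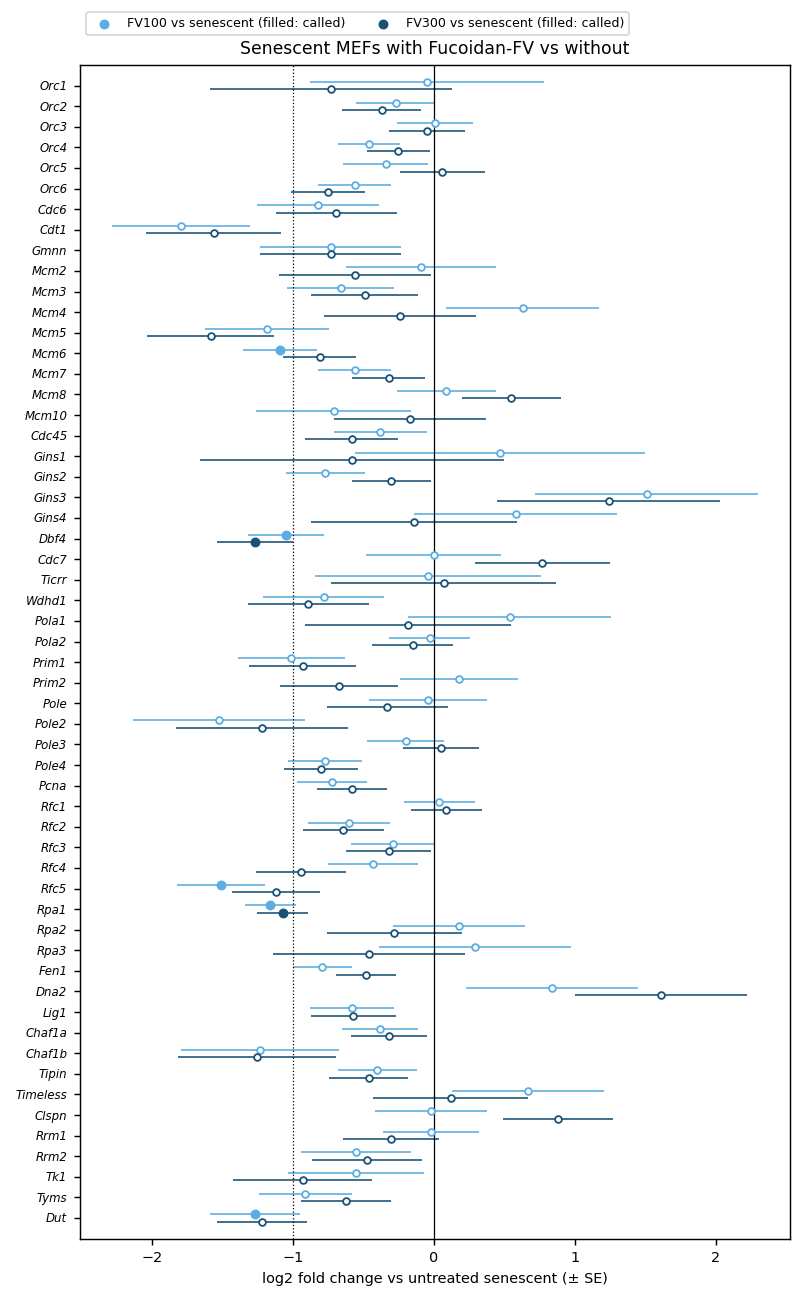
Log2 fold change against untreated SnCs with its SE for the 56 genes at 100 µg/mL (light) and 300 µg/mL (dark) of Fucoidan-FV, filled where a gene was a DEG. The filled points are Mcm6, Rfc5 and Dut at the lower dose and Dbf4 and Rpa1 at both, and most open points lie between −1 and 0.

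The 5 genes were Rpa1, Rfc5, Dbf4, Mcm6 and Dut, and they belong to 4 roles. Rpa1 (chromosome 11), at 114, 141 and 169 CPM in untreated SnCs, was at 62.2, 56 and 71.5 CPM with 100 µg/mL and at 70.4, 65.2 and 66.9 CPM with 300 µg/mL. Every treated mouse was below every untreated one. The changes were −1.16 ± 0.18 (adjusted p = 0.00542) and −1.07 ± 0.18 (adjusted p = 0.0103), beside −0.73 between senescent and control MEFs. Rfc5 (chromosome 5) was at 13.8, 11.9 and 19.5 CPM and at 23.6, 15.2 and 20.5 CPM, again without overlap with the 26.6, 39.4 and 62.9 CPM of untreated SnCs. It was a DEG at 100 µg/mL (−1.51 ± 0.31, adjusted p = 0.0178) and not at 300 µg/mL (−1.12 ± 0.31, adjusted p = 0.0864).

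Dbf4 (chromosome 5) stood at 9.17, 6.51 and 10.3 CPM with 100 µg/mL and 6.63, 9.18 and 6.51 CPM with 300 µg/mL, below all 3 untreated SnCs, and was a DEG at both doses (−1.05 ± 0.27, adjusted p = 0.0477, and −1.27 ± 0.27, adjusted p = 0.0307). Mcm6 (chromosome 1), whose promoter is shown above, was at 10.4, 11.2 and 13.8 CPM and at 14.6, 9.85 and 18.7 CPM. The lower dose gave −1.09 ± 0.26 (adjusted p = 0.0395) and the higher −0.81 ± 0.26 (adjusted p = 0.144). Dut (chromosome 2) was at 13.6, 11.1 and 13.6 CPM and at 12.2, 11.9 and 15.4 CPM, with −1.27 ± 0.32 (adjusted p = 0.0449) and −1.22 ± 0.32 (adjusted p = 0.0742). For each of the 5 genes all treated mice lay below all untreated SnCs at both doses, as was the case, with treated mice lower, for 18 of the 56 genes at 100 µg/mL and 15 at 300 µg/mL against 15.0% and 10.2% of all genes. All treated mice lay above all untreated SnCs for 1 gene at 100 µg/mL (Dna2) and 2 at 300 µg/mL (Gins3 and Clspn), against 11.2% and 9.41% of all genes.

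**Figure D5:**
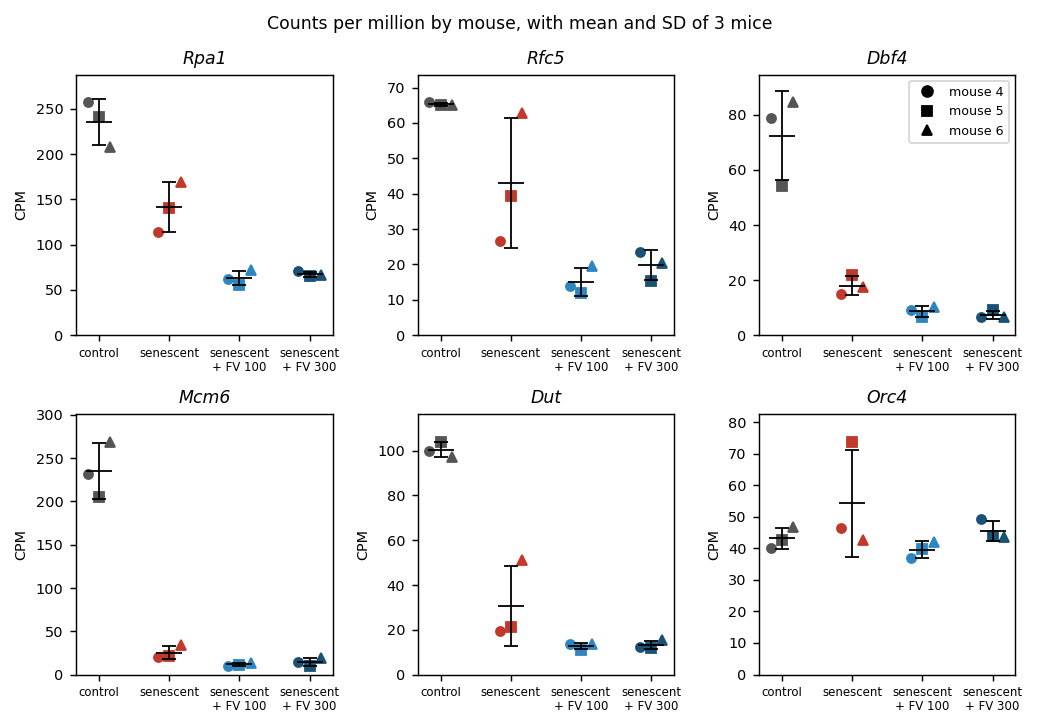
CPM of the 5 genes that were DEGs with Fucoidan-FV, and of Orc4 for comparison, in each mouse (circle, square and triangle for mice 4, 5 and 6) with the mean and SD of 3 mice on axes from 0. Treated points lie below the untreated senescent points for the 5 genes, and senescent mouse 6 is the highest of its group for Rpa1, Rfc5, Mcm6 and Dut.

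Which genes were called depended on single samples. For Rpa1 at 100 µg/mL the adjusted p stayed at 0.00621 to 0.0353 whichever senescent mouse, treated or not, was left out. Its value ran from −1.26 to −0.87, so that only the fold crossed its threshold. At 300 µg/mL its adjusted p reached 0.0687. Without untreated senescent mouse 6 no gene of the 56 was a DEG at either dose, with −0.87 for Rpa1 at both doses (adjusted p = 0.00621 and 0.00721), −1.0 for Rfc5, −0.94 for Dbf4, −0.68 for Mcm6 and −0.53 for Dut at 100 µg/mL, and −1.24 for Dbf4 at 300 µg/mL. That sample was the highest of the untreated SnCs for 33 of the 56 genes and for 41.2% of all genes, and it lay above the mean of the other mice by a median of 0.36 (log2) over the 56 genes and of 0.02 over all genes. Treated mouse 6 was also the highest of its group for 32 of the 56 genes at 100 µg/mL (52.1% of all genes). At 300 µg/mL it was so for 28 (25.9% of all genes). Leaving out mouse 4 or mouse 5 treated with 100 µg/mL left only Rpa1 at that dose, leaving out treated mouse 6 or untreated mouse 5 left Rfc5 and Rpa1, and leaving out untreated mouse 4 took away Dbf4 alone (−1.01). At 300 µg/mL 0 genes were left without treated mouse 5 (Rpa1 −1.04, Dbf4 −1.45) or treated mouse 6 (Rpa1 −1.06, Dbf4 −1.19), Dbf4 was lost without treated mouse 4 (−1.20) or untreated mouse 5 (−1.06), and Rfc5 (−1.31) and Dut (−1.39) were added without untreated mouse 4. With the mouse as a replicate block 3 genes were left at 100 µg/mL, since Dbf4 (−1.06, adjusted p = 0.0758) and Dut (−1.18, adjusted p = 0.0585) were lost, and 1 at 300 µg/mL, where Dbf4 (−1.27, adjusted p = 0.0612) was lost.

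The other 51 genes had no DEG call at either dose. Cdt1 had the lowest value at 100 µg/mL, with 5.18, 7.93 and 9.07 CPM in untreated SnCs and 2.07, 1.82 and 2.53 CPM with treatment (−1.79 ± 0.49, adjusted p = 0.0571), and was at 4.89, 1.03 and 1.62 CPM at 300 µg/mL (−1.56 ± 0.48, adjusted p = 0.126). Mcm5 had the lowest value at 300 µg/mL, −1.58 ± 0.45 (adjusted p = 0.0992), and −1.18 ± 0.44 at 100 µg/mL. Both became DEGs in some alternatives, and Cdt1 at 300 µg/mL also without treated mouse 4 (−2.48). Fen1 was at 8.48, 8.52 and 8.03 CPM with 100 µg/mL, a narrow range below all untreated SnCs, and at 9.93, 9.96 and 11 CPM with 300 µg/mL (−0.79 ± 0.21, adjusted p = 0.0505, and −0.48 ± 0.21).

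The genes with the largest falls in SnCs stayed at low levels with treatment. Clspn was at 0.876, 0.719 and 0.761 CPM with 100 µg/mL and 2.33, 1.14 and 0.954 CPM with 300 µg/mL, and the value at the higher dose was 0.88 ± 0.39 (adjusted p = 0.302). Dna2 was at 1.31, 0.719 and 0.692 CPM and at 2.64, 0.391 and 1.66 CPM, with 1.61 ± 0.61 at 300 µg/mL (adjusted p = 0.218), the highest value of the 56 genes at that dose. Neither was a DEG, although the treated mice lay above the untreated SnCs for Clspn at 300 µg/mL and for Dna2 at 100 µg/mL. Orc1 (0.563, 0.189 and 0.104 CPM, then 0.0388, 0.285 and 0.207 CPM) and Ticrr (0.845, 0.303 and 1.66 CPM, then 1.40, 1.10 and 0.539 CPM) overlapped with untreated SnCs at both doses. Mcm10 was at 0.876, 0.379 and 2.11 CPM and at 2.83, 0.818 and 1.29 CPM, and so overlapped as well.

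Of the catalytic and accessory genes, Pole was at 3.22, 2.16 and 4.74 CPM with 100 µg/mL and 1.71, 3.13 and 3.40 CPM with 300 µg/mL, within the range of untreated SnCs or close to it. Pole3 was at 29.5, 30.6 and 43.1 CPM and at 58.3, 32.2 and 32.0 CPM. Mcm7 was at 12, 13.2 and 8.72 CPM and at 14.2, 10.8 and 14.9 CPM. All 3 overlapped with untreated SnCs at both doses. Rfc4 was at 4.35, 2.88 and 4.98 CPM and at 2.52, 3.34 and 2.74 CPM, the latter below all untreated SnCs (−0.94 ± 0.32, adjusted p = 0.163). Gins4 was at 7.92, 8.14 and 3.56 CPM and at 1.40, 5.55 and 4.94 CPM, as uneven as in the other groups.

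Chaf1a was at 11.3, 12.1 and 15.9 CPM with 100 µg/mL and 12.6, 12.8 and 15.5 CPM with 300 µg/mL, and Chaf1b was at 1.66, 0.416 and 3.74 CPM and at 1.94, 1.78 and 2.03 CPM. Tipin was at 12.5, 11.2 and 20.3 CPM and at 14.8, 16.3 and 11.2 CPM. Tk1 was at 2.94, 1.70 and 3.08 CPM and at 1.98, 1.78 and 2.20 CPM. Of these 4 genes only Chaf1b at 300 µg/mL had all treated mice below all untreated ones (−1.25 ± 0.56, adjusted p = 0.305). Orc4, which had not fallen in SnCs, was at 36.8, 39.9 and 42.1 CPM and at 49.3, 43.9 and 43.6 CPM, near the 40.2 to 46.8 CPM of controls, and at 100 µg/mL below all untreated SnCs (−0.46 ± 0.22, adjusted p = 0.267). Gins3 had the highest value at 100 µg/mL, 1.51 ± 0.79 (adjusted p = 0.313), with 2.54, 2.39 and 0.692 CPM against 0.863, 0.302 and 0.781 in untreated SnCs.

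The scale of the counts bears on the size of these changes. The deposited TPM values, which RSEM divides by a length estimated in each library, were higher with treatment by a median over all genes of 0.49 at 100 µg/mL and 0.43 at 300 µg/mL (log2) before the medians were set equal. On that scale, tested with limma, 41 genes were lower in SnCs, 0 of the 56 were lower at 100 µg/mL (Rpa1 −0.86, adjusted p = 0.0216, and Rfc5 −1.28, adjusted p = 0.053) and Rpa1 (−1.04) and Dbf4 (−1.34) were lower at 300 µg/mL. At 100 µg/mL 3155 of the 15034 genes had an unadjusted limma p under 0.05, and 266 were lower and 118 higher as DEGs on that scale. In TPM, Rpa1 was at 72.6 ± 5.71 in untreated SnCs, 55.8 ± 2.80 at 100 µg/mL and 47.3 ± 5.79 at 300 µg/mL, and senescent mouse 6, the highest untreated sample in CPM, was the lowest in TPM at 66.9.

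Between the doses no gene of the 56 was a DEG in edgeR's test, in DESeq2 or in limma on TPM, against 0.00665% of all genes that were lower and 0 that were higher at 300 µg/mL, and 1 had an unadjusted p under 0.05, against 0.625% of all genes. That gene was Clspn (0.90 ± 0.39, adjusted p = 0.97). The differences of the 56 genes ran from −1.05 (Gins1) to 0.90 on the log2 scale with a median of −0.01. The only DEG of the whole comparison was Pif1, a replication-linked helicase outside the list, with 31, 16 and 29 counts in mice 4, 5 and 6 at 100 µg/mL and 0 counts in all 3 libraries at 300 µg/mL, which its fold cannot measure. It had 10, 18 and 19 counts in untreated SnCs.

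Against control MEFs the treated SnCs were lower for 48 of the 56 genes at each dose and higher for 0, where 9.37% of all genes were lower and 10.3% higher at 100 µg/mL, and 8.11% and 9.87% at 300 µg/mL. The median log2 fold change was −2.86 and −2.85, beside −2.33 for untreated SnCs, and the median level was 13.9% of the control mean at both doses. The 43 genes lower in untreated SnCs were all among the 48, and the same 5 genes were added at both doses: Orc2, Pole4, Rfc2, Rfc5 and Rpa1. At 100 µg/mL 42 of the 48 held in every alternative that tested them. Leaving out a mouse left 42 to 47, the fewest without control mouse 4, and each mouse left out ended at least 1 call. Orc2 was lost without control mouse 6 (−0.80) or 4 (−0.92) or treated mouse 4 (−0.98) or 5 (−1.02), and its value was also inside the fold with DESeq2 (−0.99). Gins1 (−2.54 to −3.94), Pola1 (−1.80 to −2.86), Prim2 (−0.91 to −1.55) and Rpa2 (−1.02 to −1.61) were each lost without control mouse 4 or 5 or any treated mouse, and Mcm4 without control mouse 4 (−1.37) or treated mouse 6 (−1.91). At 300 µg/mL 45 of the 48 held, and Orc2 was lost without control mouse 6 (−0.98) and Gins1 (−3.73) and Rpa2 (−1.58) without control mouse 4. These comparisons share their control samples, and the added genes had values between −0.60 and −0.94 in untreated SnCs. The 8 genes that were DEGs in no group against controls were Orc3, Orc4, Orc5, Gins3, Gins4, Pole3, Rfc1 and Rpa3. Gins3, Gins4 and Rpa3 have 79.1%, 100% and 81% of their exonic bases in 1 transcript. Their control libraries 5(1) and 5(2) stood at 0.667 and 2.92, 3.09 and 12.2, and 1.55 and 8.29 CPM. For these genes the lack of a call does not show an unchanged level.

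Of the lists outside the 56, treatment at 100 µg/mL lowered Rnaseh2a (−1.23 ± 0.29, adjusted p = 0.0373), a subunit of the enzyme that removes ribonucleotides from DNA, and Nap1l1 (−1.08 ± 0.17, adjusted p = 0.00542), a histone chaperone, as the only DEGs of 36 and 17 genes, and 0 of 24 nucleotide synthesis genes were DEGs, with 11 at an unadjusted p under 0.05, as were 4 fork factors, 7 chromatin genes and 1 histone gene (19.8% of all genes). Of 28 histone genes tested 1 was a DEG at that dose (H2bc8, −1.36 ± 0.36, lower). At 300 µg/mL the DEGs of these lists were Pif1 alone, and 6 fork factors, 9 nucleotide synthesis genes, 3 chromatin genes and 0 histone genes had an unadjusted p under 0.05 (15.3% of all genes). Rnaseh2a was at 15.5, 21.3 and 34.8 CPM in untreated SnCs, with mouse 6 highest as for Rfc5 and Dut, and at 12.4, 8.90 and 9.20 CPM with treatment. Mki67 did not pass the test at either dose (0.16 ± 0.62 and −0.62 ± 0.63). Cell type markers, fibroblast ones among them, differed in level with treatment. Fibroblast markers summed to 35159 to 53789 CPM in untreated SnCs, 40616 to 48515 at 100 µg/mL and 46019 to 50073 at 300 µg/mL. In that order means were higher for Col3a1 (873, 2271 and 1963), Dcn (16.2, 81.6 and 75.7), Lum (0.666, 6.6 and 4.47), Pdgfra (7.18, 21.4 and 20.1), Col1a2 and Pdgfrb. Vim (7729, 4228 and 4869) and Thy1 were lower, and Col1a1 and Fn1 differed in direction between doses. Endothelial markers summed to 1.47 to 3.30 CPM in untreated SnCs, 5.92 to 11.7 CPM at 100 µg/mL and 5.23 to 8.36 CPM at 300 µg/mL. Most of that rise was Tek, a DEG at the lower dose (3.58), with means of 0.481, 5.87 and 4.92 CPM. In the same order Kdr (0.633, 0.435 and 0.25) and Cdh5 (0.247, 0.165 and 0.124) had lower means with treatment. Pecam1 (0.22, 0.497 and 0.344) and Emcn (0.518, 0.999 and 0.664) had higher ones. Neural markers summed to 33 to 46.9, 65.1 to 92.7 and 66.5 to 84.4 CPM, with Map2 a DEG at both doses (3.04 and 3.23). The means were 34.9, 62.3 and 52.1 CPM for Tubb3 and 2.34, 19.1 and 21.8 CPM for Map2. Skeletal muscle markers, nearly all of it Acta1, which was not a DEG, summed to 74.6 to 92.9, 13.7 to 51.4 and 18 to 43.1 CPM, and macrophage markers to 2.91 to 17.7, 6.32 to 15 and 4.46 to 11.8 CPM. No marker of the 6 lists was at 0 in all samples. Their part in the changes of the 56 genes was not tested.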

How the data were processed

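RNA of 13 libraries was analysed: control, senescent and senescent MEFs with 100 or 300 µg/mL Fucoidan-FV, mice 4, 5 and 6 in each group. Total RNA was sequenced from stranded libraries. By the methods and the processing notes of the submitters, reads were trimmed (Trimmomatic, with FastQC 0.12.1), aligned to GRCm39 with STAR 2.7.11b and quantified with RSEM 1.3.1. The authors deposited expected counts per gene, without normalization, and TPM, which RSEM scales by transcript length and library size. The authors' table of all counts was not used here.

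Expected counts were rounded, libraries 5(1) and 5(2) summed, and genes filtered with filterByExpr (minimum count 10, minimum total 15), which left 15034. Changes were tested with edgeR 4.0.16 in R 4.3.3 (TMM factors, quasi-likelihood test, 1 fit over the 4 groups, Benjamini-Hochberg adjustment over all genes tested). A gene was taken as a DEG where its adjusted p was below 0.05 and its log2 fold change beyond 1 in size, the thresholds of the study. TPM served for levels between genes, with the mean of 5(1) and 5(2) for control mouse 5. P-values measure the spread between these samples. Totals of 22782505 to 31278741 counts set the precision.

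The 56 genes, their roles and the other lists were chosen with earlier results of these data known. In each role, the genes with the largest fall and the largest rise or smallest change in SnCs, and all DEGs of either dose, are given in every sample. Cdt1, Mcm5, Fen1 and the other genes named beside these were chosen after their values were seen. Of the other lists at most 2 changes in each direction are named. The main fit held the groups alone and did not pair samples by mouse. Mouse numbers, taken as pairs from the labels, served for the medians within the mice and for the replicate block. As a check of the pairing, deviations from the group mean were correlated between same-numbered samples: 18 pairs gave a median of −0.00627 (−0.204 to 0.425), and 8 of them exceeded 0.1. Alternatives were DESeq2 1.42.0, RLE factors, other filters, fits of the groups compared, the mouse as a replicate block, control libraries 5(1) and 5(2) alone or separate, each mouse left out, offsets for transcript structure and the adjusted p alone. Chosen after seeing the data were the control library alternatives for comparisons without controls and TPM with limma 3.58.1 (log2 of TPM + 0.5, medians set equal). Promoters of 47 of the 56 genes were matched by symbol to RefSeq sequences of GRCm38.p6. The annotation of GRCm39 matched 56310 of the 57010 genes.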

Additional observations from a re-analysis of the deposited data

How the results depend on the processing

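With 3 mice a group, every result leans on each mouse, and counts of a few genes near the threshold are the least stable. In SnCs against controls, 36 of the 43 DEGs among the 56 genes held under each of the 18 alternatives in which they were tested (a stricter filter dropped a few), the exceptions being Orc1, Mcm4, Gins1, Pola1, Prim2, Rpa2 and Tipin. Their number ran from 37 to 44 when a mouse was left out, and Orc3 (0.18) ran from −0.08 (without senescent mouse 5) to 0.37. With the replicate block it was 41. At 100 µg/mL against SnCs, the 5 DEGs became 2 with RLE factors, with 10 counts in every sample and with library 5(2) alone, 3 with 5(1) and 5(2) separate, 4 with the offsets and the replicate block, 6 without a filter (Cdt1 and Mcm5 added, Dbf4 lost), 5 with DESeq2 (Cdt1 in place of Dbf4), 0 with only the groups compared, 0 with TPM and limma, and 0 to 4 when a mouse was left out, and the median ran from −0.52 to −0.19. With the mouse as a replicate block there were 3. At 300 µg/mL, the 2 DEGs became 6 with DESeq2 and without a filter, 5 with the offsets and 5 with the offsets and the replicate block, 1 with the replicate block alone, 1 with library 5(2) alone or separate libraries, 0 with only the groups compared and 0 to 4 when a mouse was left out, and the median ran from −0.59 to −0.28. Between the doses, the median of −0.01 became −0.07 with DESeq2, RLE factors or offsets, −0.05 without a filter or with only the groups compared, −0.06 with 10 counts in every sample, 0.03 with the replicate block, −0.08 with the block and offsets, 0.06 with TPM, and −0.12 to 0.10 without a mouse. The median of 100 µg/mL against controls was −2.51 with 10 counts in every sample and −2.94 to −2.51 without a mouse. In a 100-base window the E2F words stood in 12.8% of the members' promoters and 0.981% of all, and CCAAT in 44.7% and 21.6%. The cause was not tested. The replicate block changed no other call among the 5 genes of the doses or the 56 genes in SnCs than those given beside them.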
